A study of Arabidopsis thaliana with 14 samples.

Results

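POWERDRESS (PWR) is a SANT domain protein of Arabidopsis that acts with the histone deacetylase HDA9, and the comparison described here is that of pwr mutant leaves with wild type (WT) leaves at early senescence (ES). It holds 4 of the 14 samples of the series, 2 libraries of pwr and 2 of WT Columbia-0, all made from leaf RNA of soil-grown plants kept in continuous light. The pwr line carries a T-DNA, an inserted stretch of bacterial plasmid DNA, in the PWR gene, and the WT plants carry no insertion. The labels give neither the age of the ES plants nor how many plants went into a library, and the study used 1 pwr insertion line. The libraries of a genotype are labelled as repeats, which the study calls biological replicates. The p-values below rest on the spread between these 2 repeats, moderated toward the trend over all genes tested. They cover no other source of variation.

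Leaf senescence is the ordered breakdown of a leaf at the end of its life, in which chloroplasts are dismantled and nitrogen is moved to growing organs. Histone deacetylases remove acetyl groups from histone tails, and acetylated histones are mostly found at transcribed genes. Jasmonate, abscisic acid (ABA) and ethylene, together with NAC and WRKY transcription factors, take part in senescence, and jasmonate also drives wound and insect defence, including the sulphur-rich glucosinolates of the cabbage family.

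Expression was read as FPKM, a fragment count scaled by transcript length and by library size. Values were put on the log2(FPKM + 1) scale, and 18180 of the 33278 gene identifiers, those averaging 1 FPKM or more across these libraries, were tested. A gene is named as called, higher or lower, where limma gave an unadjusted p under 0.05, the threshold the study used. Fold changes are differences on the log2(FPKM + 1) scale, pwr minus WT, over 2 libraries a genotype. Each is given with the moderated standard error (SE) of limma, in which a gene's variance is drawn toward the trend over all genes. The file holds no counts, so the depth is unknown and no counting error could be given. Fewer cells of a type and less RNA per cell cannot be told apart in bulk leaves.

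WT replicate 1 stood apart from the other 3 libraries. Among genes under 1 FPKM in both libraries of a pair, 20.0% to 21.2% shared 1 ratio of FPKM in the 3 pairs made of WT replicate 2 and the pwr libraries, which is what whole reads counted the same way give, against 0.696% to 0.831% in the 3 pairs with WT replicate 1. The labels name no batch. Main results are therefore also given against WT replicate 2 alone, which with 1 library has no test, and the part of the library difference in the 4-library result was not tested. Leaf genes were abundant in every library, with the summed FPKM of 38 nuclear photosystem, antenna and small Rubisco subunit genes between 52045 and 127480. No gene of 12 flower organ identity markers or of 12 seed storage markers reached the filter, and their summed FPKM was at most 4.75 and 1.87.

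The targeted gene was lower in pwr, without being lost. PWR (AT3G52250) lies at chr3:19376138-19383369 on the plus strand of TAIR10.1 and its transcript has 5 exons. It was at 10.2 and 16.97 FPKM in WT replicates 1 and 2, and at 7.01 and 6.02 FPKM in pwr replicates 1 and 2. Both pwr libraries were below both WT libraries, with a log2 change of -0.92 ± 0.34 and a mean difference from WT replicate 2 of -1.26, and the call was lost without WT replicate 2 or without either pwr library. The primers with which the study typed the line are shown because they mark the stretch of the gene that was tested for the insertion. Each matches the genome once, the forward primer in exon 3 at chr3:19377759-19377778 and the reverse primer in exon 4, on the minus strand, at chr3:19378903-19378922.
TD-pwr-F: aaatggtcggaggtcagttg
TD-pwr-R: agcagctatagcagccttcg

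Fragments from any part of the gene count toward its FPKM, so the level does not show whether the transcript spans the insertion. HDA9 was at 5.94 and 11.7 FPKM in WT and at 11.3 and 9.71 FPKM in pwr, and the genotypes overlapped. HOS15, a WD40-repeat protein that works with the same deacetylase, was at 6.41 and 20.9 FPKM in WT and at 25.5 and 26.6 FPKM in pwr and was not called. Among the annotated neighbours of PWR, 5 on each side, 8 passed the filter and were tested, and their log2 changes lay between -0.70 and 0.51 with no call.

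Of the 18180 genes, 702 (3.86%) were called higher and 589 (3.24%) lower in pwr. These shares are the background for each count of calls below. After Benjamini-Hochberg adjustment over all genes in limma, 0 genes passed 0.05, where 1291 passed unadjusted, and the smallest adjusted p was 0.0504. The number called higher was 356 without WT replicate 1, 2373 without WT replicate 2, 449 without pwr replicate 1 and 235 without pwr replicate 2. For lower calls the corresponding numbers were 987, 1129, 451 and 201, and 159 of the 1291 called genes kept their call and direction in all 4 of these fits.

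Against WT replicate 2 the balance turned toward decreases. Both pwr libraries were at least 2-fold above it for 164 genes (0.902%) and at least 2-fold below it for 717 genes (3.94%). These counts were 1083 and 1478 with pwr replicate 2 alone, and 516 and 1144 with pwr replicate 1 alone. Against WT replicate 1 they were 1386 (7.62%) and 757 (4.16%). All 702 higher calls and all 589 lower calls had the same direction against WT replicate 2, where 118 of the former (0.649% of all genes tested) and 278 of the latter (1.53%) passed 2-fold in both pwr libraries. Against each WT library, 99 higher calls (0.545%) and 173 lower calls (0.952%) passed 2-fold. Both pwr libraries lay above both WT libraries for 4682 genes (25.8%) and below both for 3057 (16.8%). Every called gene was among them, which fixes the direction of each call against either WT library.

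**Figure D1:**
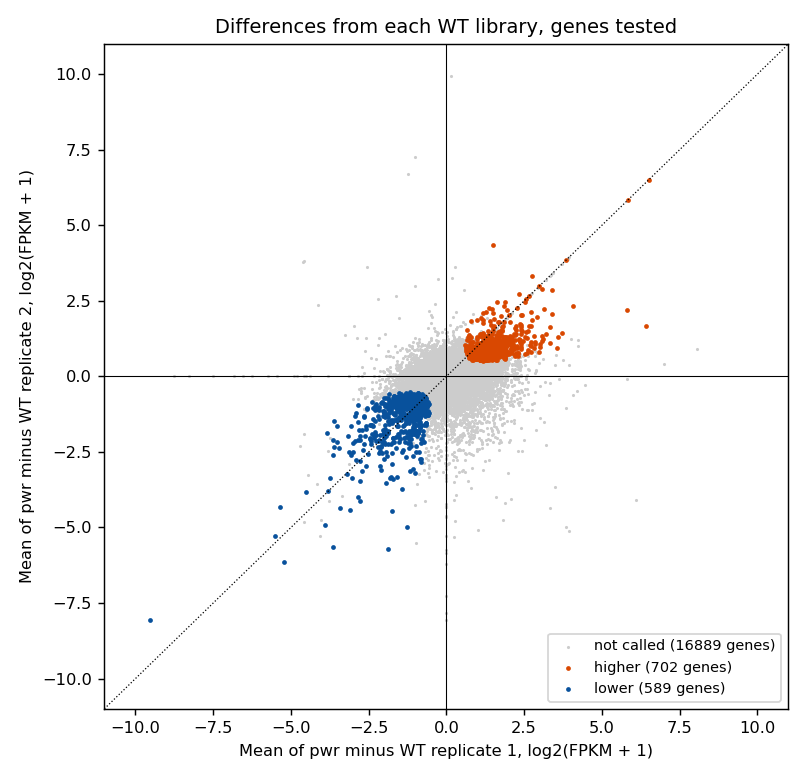
Each point is 1 of the 18180 genes tested, with the mean of the 2 pwr libraries minus WT replicate 1 on the horizontal axis and minus WT replicate 2 on the vertical axis, both on the log2(FPKM + 1) scale, and the dotted line marks equal differences. The 702 genes called higher (orange) and the 589 called lower (blue) lie in the quadrants where both differences have 1 sign, while many uncalled genes (grey) differ from only 1 of the WT libraries.

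Flowering genes gave some of the largest increases. FT (FLOWERING LOCUS T, AT1G65480), which encodes the mobile flowering signal made in leaves, was at 3.40 and 13.8 FPKM in WT and at 43.4 and 122 FPKM in pwr, a log2 change of 3.20 ± 0.76. AGL19 (AT4G22950), a MADS box gene that promotes flowering and is kept silent by Polycomb proteins, was at 1.70 and 2.05 FPKM in WT and at 16.8 and 27.6 FPKM in pwr. Its log2 change was 2.97 ± 0.34. For both genes the lowest pwr library was above the highest WT library, and the mean differences from WT replicate 2 alone were 2.32 for FT and 2.88 for AGL19. FT lost its call without pwr replicate 2, and AGL19 kept it in every fit that left out a library.

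No other member of the flowering list of 17 tested genes was called. Thus 2 of 17 were higher and 0 lower, beside 3.86% and 3.24% of all genes. Both pwr libraries were above both WT libraries for 8 of the 17 and below both for 3, beside 25.8% and 16.8% of all genes. The list median log2 change was 0.47 against 0.09 over all genes tested, or 0.22 against 0.01 where WT replicate 2 alone was used. SOC1, a MADS box integrator that FT acts on, was at 86.4 and 97.1 FPKM in WT and at 136 and 155 FPKM in pwr. CO, the photoperiod factor that activates FT, was at 0.769 and 1.53 FPKM in WT and at 1.84 and 5.60 FPKM in pwr. These genes did not overlap between genotypes and were not called, whereas the FT paralogue TSF overlapped, at 3.19 and 6.16 FPKM in WT and 3.67 and 0.883 FPKM in pwr. FLC, the floral repressor, was at most 2.27 FPKM in any library and was not tested.

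In the hda9 ES libraries of the same table FT was at 46.1 and 79.5 FPKM and AGL19 at 9.16 and 13.8 FPKM. Both genes were thus above WT in all 4 mutant libraries, and the difference between the mutants was not tested. The pwr and hda9 comparisons share the WT libraries.

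**Figure D2:**
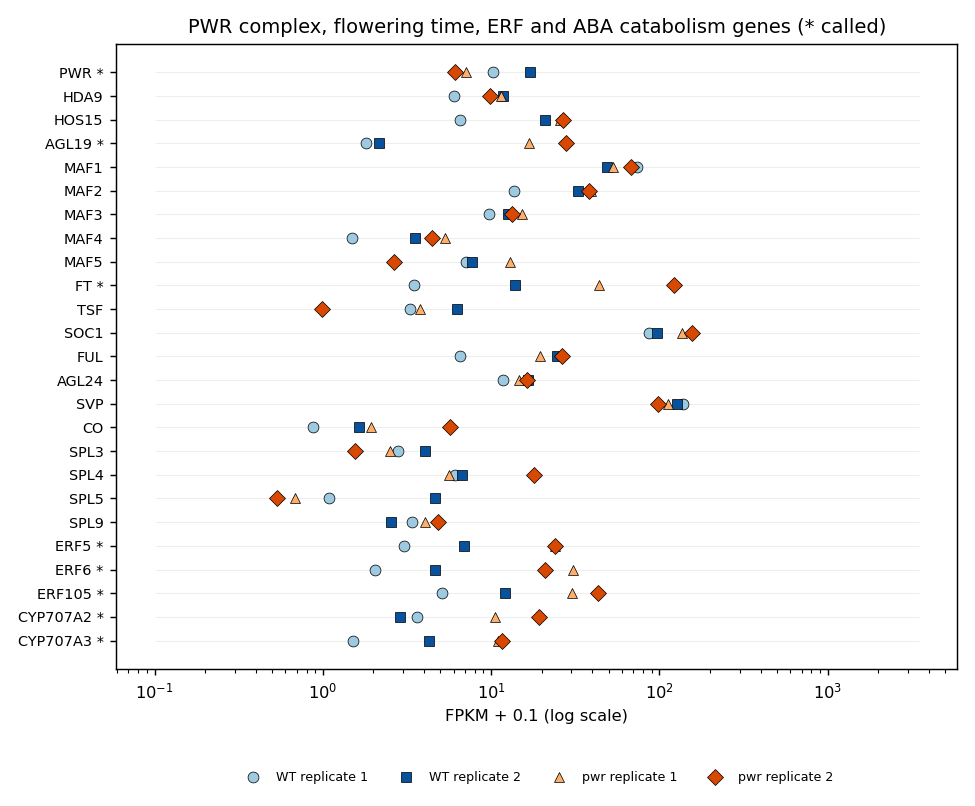
FPKM plus 0.1 on a logarithmic axis in each of the 4 libraries for PWR, HDA9, HOS15, the 17 tested flowering genes, 3 ethylene response factors and 2 ABA hydroxylases, with an asterisk on genes called. FT (3.40 and 13.8 FPKM in WT, 43.4 and 122 FPKM in pwr) and AGL19 are the flowering genes called. They have both pwr libraries to the right of both WT libraries, as do some of the other flowering genes.

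Pollen transcripts are given as levels only, for 13 genes chosen after their values were seen, so that no count of calls over them is informative. VGD1, a pectin methylesterase of pollen tubes, was at 0.805 and 5.18 FPKM in WT and at 9.96 and 14.6 FPKM in pwr. The summed FPKM of the 13 genes was 7.59 and 37.2 in WT and 85.3 and 108 in pwr, so WT replicate 2 was also above WT replicate 1. MGH3, the histone of sperm cells, was at 0 in both WT libraries and at 0.185 and 0.172 FPKM in pwr. Whether pollen on the leaves had a part in these values was not tested.

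Ethylene response factors of a single clade rose. ERF6 was at 1.94 and 4.56 FPKM in WT and at 30.4 and 20.7 FPKM in pwr, a log2 change of 2.69 ± 0.42. ERF5 was at 2.95 and 6.83 FPKM in WT and at 23.8 FPKM in both pwr libraries, and ERF105 went from 4.98 and 11.9 FPKM to 30.1 and 43.0 FPKM. These factors respond to stress and pathogen signals and act on defence genes and leaf growth. They were the only calls, 3 higher and 0 lower, among 21 tested ethylene and cold transcription factors, beside 3.86% and 3.24% of all genes. The list median log2 change was 0.60, and 0.27 against WT replicate 2. ERF5 and ERF6 kept their calls in every fit that left out a library, and ERF105 lost its call without pwr replicate 2. EIN2 and EIN3, the core of ethylene signalling, were not called.

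Some genes of ABA breakdown were higher as well. CYP707A2, an ABA 8′-hydroxylase, was at 3.53 and 2.79 FPKM in WT and at 10.5 and 19.1 FPKM in pwr, a log2 change of 1.88 ± 0.37, and its paralogue CYP707A3 was at 1.41 and 4.2 FPKM in WT and 10.9 and 11.5 FPKM in pwr. Their paralogue CYP707A1 was at 1.53 and 3.72 FPKM in WT and at 1.49 and 2.14 FPKM in pwr and was not called. NCED3, which makes the ABA precursor, was at 15.7 and 53.2 FPKM in WT and 35.2 and 37.9 FPKM in pwr, within the WT range. In the ABA signalling list of 26 tested genes 3 were called higher and 1 lower, beside 3.86% and 3.24% of all genes. The list median log2 change of 0.30 was -0.23 against WT replicate 2. The lower gene was PYR1, an ABA receptor, at 112 and 100 FPKM in WT and 63.9 and 55.1 FPKM in pwr, and the third higher gene was AFP2, a repressor of ABA responses, at 1.82 and 3.06 FPKM in WT and 4.66 and 7.03 FPKM in pwr. Of these 4, CYP707A2 kept its call in every fit that left out a library, CYP707A3 lost its call without either pwr library, and AFP2 and PYR1 lost theirs without WT replicate 1 or either pwr library.

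Called jasmonate genes were all lower. Of 27 tested genes of jasmonate synthesis, signalling and response, 8 were called lower and 0 higher, beside 3.24% and 3.86% of all genes, 16 had both pwr libraries below both WT libraries, beside 16.8% of all genes, and the median log2 change was -0.78. Against WT replicate 2 the median was -1.11 and against WT replicate 1 it was -0.56. The list was chosen with earlier results of these data known, so its direction is a description. Its division below into synthesis and JAZ repressor genes was made after values were seen.

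Among enzymes of synthesis, which turn chloroplast linolenic acid into jasmonic acid, 2 of 10 were called lower and 0 higher, beside 3.24% and 3.86% of all genes. AOC1, an allene oxide cyclase, was at 556 and 355 FPKM in WT and at 140 and 57.3 FPKM in pwr, a log2 change of -2.30 ± 0.53, and AOC4 was at 67.8 and 39.7 FPKM in WT and 21.9 and 15.1 FPKM in pwr. LOX2, the lipoxygenase of the first step, was at 893 and 745 FPKM in WT and 632 and 392 FPKM in pwr, and AOS at 699 and 492 FPKM and at 414 and 191 FPKM. LOX2 and AOS did not overlap between genotypes but were not called. AOC1, AOC2 and AOC3 are neighbouring paralogues, so the share of reads given to each is uncertain.

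JAZ repressor genes encode the proteins destroyed when jasmonate is perceived and are themselves induced by it. Of 10 such genes 3 were called lower and 0 higher, beside 3.24% and 3.86% of all genes. JAZ10 was at 19.9 and 61.6 FPKM in WT and at 8.08 and 2.21 FPKM in pwr, a log2 change of -2.74 ± 0.73. JAZ9 was at 239 and 438 FPKM in WT and at 165 and 83.4 FPKM in pwr, and JAZ3 at 50.1 and 40.4 FPKM in WT and 19.0 and 16.2 FPKM in pwr. JAZ1, JAZ5, JAZ7 and JAZ8 overlapped between genotypes, with WT replicate 1 the lowest library and WT replicate 2 the highest. JAZ7 was at 1.94 and 27.1 FPKM in WT and 8.54 and 6.03 FPKM in pwr. The receptor gene COI1 was at 28.5 and 25.2 FPKM in WT and 38.9 and 33.1 FPKM in pwr, and the transcription factor gene MYC2 at 121 and 137 FPKM and at 130 and 120 FPKM. Neither was called.

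Among response genes the change differed widely. VSP1, a vegetative storage protein and standard jasmonate marker, was at 667 and 845 FPKM in WT and at 57.6 and 112 FPKM in pwr, a log2 change of -3.21 ± 0.43 and a mean difference from WT replicate 2 of -3.38. VSP2, its near-identical neighbour with which reads may be shared, was at 630 and 989 FPKM in WT and 261 and 288 FPKM in pwr. THI2.1, an antimicrobial thionin, was at 10.2 and 7.86 FPKM in WT and 2.46 and 3.88 FPKM in pwr. PDF1.2A, the defensin marker of combined jasmonate and ethylene signalling, was at 2.51 and 3.92 FPKM in WT and at 10.02 and 0.321 FPKM in pwr, with the pwr libraries on either side of WT. Of the 8 calls, 7 remained without WT replicate 1, 6 without WT replicate 2, 6 without pwr replicate 1 and 3 without pwr replicate 2, and VSP1 kept its call in all 4 fits.

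**Figure D3:**
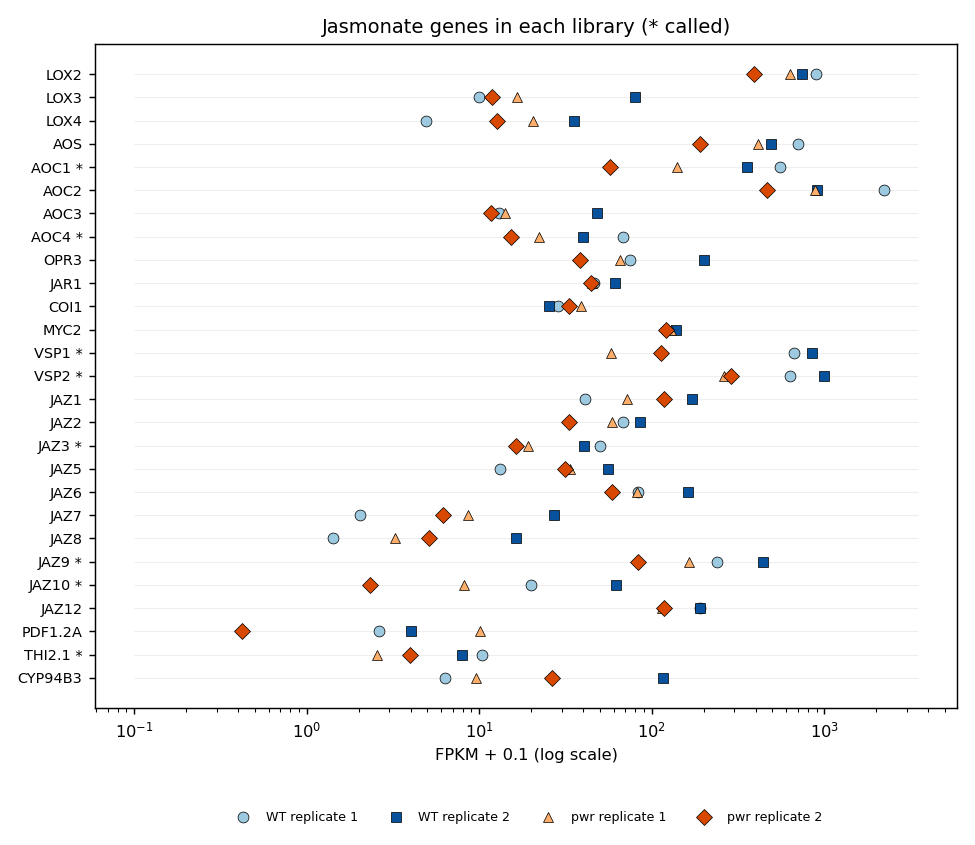
FPKM plus 0.1 on a logarithmic axis in each library for the 27 tested jasmonate genes, with an asterisk on the 8 called. VSP1 (667 and 845 FPKM in WT, 57.6 and 112 FPKM in pwr) and JAZ10 have both pwr libraries to the left of both WT libraries, while LOX3, JAZ7, JAZ8 and CYP94B3 have WT replicate 2 far to the right of the other 3 libraries.

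Lower calls among glucosinolate genes lay in the aliphatic branch. Of 19 tested genes of glucosinolate synthesis 8 were called lower and 0 higher, beside 3.24% and 3.86% of all genes. The list median log2 change was -0.69, -0.94 against WT replicate 2 and -0.64 against WT replicate 1. Split after the values were seen into the branch that starts from methionine and the branch that starts from tryptophan, 8 of 10 aliphatic genes were called lower, with a median of -2.12, and 0 of 5 indole genes were, with a median of -0.21. The indole gene CYP83B1, at 297 and 246 FPKM in WT and 296 and 233 FPKM in pwr, overlapped between genotypes. Among the 5 indole genes CYP79B3 had both pwr libraries below both WT libraries and MYB51 had both above, with no call. The split was made from these same values, so its counts are a description, and the difference between the branches was not tested.

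The regulators and enzymes of the aliphatic branch had similar profiles. MYB29 was at 19.2 and 17.5 FPKM in WT and at 5.63 and 1.67 FPKM in pwr, a log2 change of -2.20 ± 0.49, and MYB76 was at 6.25 and 4.2 FPKM in WT and 0.497 and 0.277 FPKM in pwr. MYB28, the third activator of the branch, was at 124 and 93.6 FPKM in WT and 67.4 and 92.8 FPKM in pwr and was not called. BCAT4, the aminotransferase that opens methionine chain elongation, was at 786 and 805 FPKM in WT and at 240 and 75.6 FPKM in pwr, a log2 change of -2.55 ± 0.60. MAM3, a methylthioalkylmalate synthase of the same cycle, was at 26.1 and 16.3 FPKM in WT and 6.33 and 0.282 FPKM in pwr. In each of these genes other than MYB28, pwr replicate 2 was lower than pwr replicate 1. MYB76 was under 1 FPKM in both pwr libraries and passed the filter only through WT.

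CYP79F1, which commits elongated methionine to the pathway, was at 325 and 389 FPKM in WT and at 132 and 51.5 FPKM in pwr. AOP2, named for side chain modification, was at 38.7 and 64.6 FPKM in WT and 14.1 and 6.35 FPKM in pwr. The reference annotates AOP2 as a transcribed pseudogene, so its level says nothing about an active enzyme. Without WT replicate 1, 6 of the 8 calls stayed, 3 without WT replicate 2, 7 without pwr replicate 1 and 6 without pwr replicate 2, with AOP2, MYB29 and MYB76 kept throughout. Among 9 genes of glucosinolate hydrolysis, a list chosen after values were seen, 3 were called lower and 0 higher, beside 3.24% and 3.86% of all genes. TGG2, a myrosinase that releases the toxic products in wounded leaves, was at 92.2 and 94.1 FPKM in WT and at 6.2 and 13.4 FPKM in pwr, a log2 change of -3.21 ± 0.40. The other myrosinase TGG1 was at 249 and 88.9 FPKM in WT and 76.0 and 68.5 FPKM in pwr. The calls of NSP1 and MVP1, the other 2 in this group, were each lost in at least 1 fit that left out a library, and TGG2 kept its call.

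In hda9 ES leaves TGG2 was at 66.3 and 4.96 FPKM, MYB29 at 20.9 and 3.32 FPKM and VSP1 at 1235 and 349 FPKM. The 2 hda9 libraries lay far apart for these genes, and the difference from pwr was not tested. PWR itself was at 28.5 and 51.5 FPKM in hda9, above all 4 libraries of the other genotypes.

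**Figure D4:**
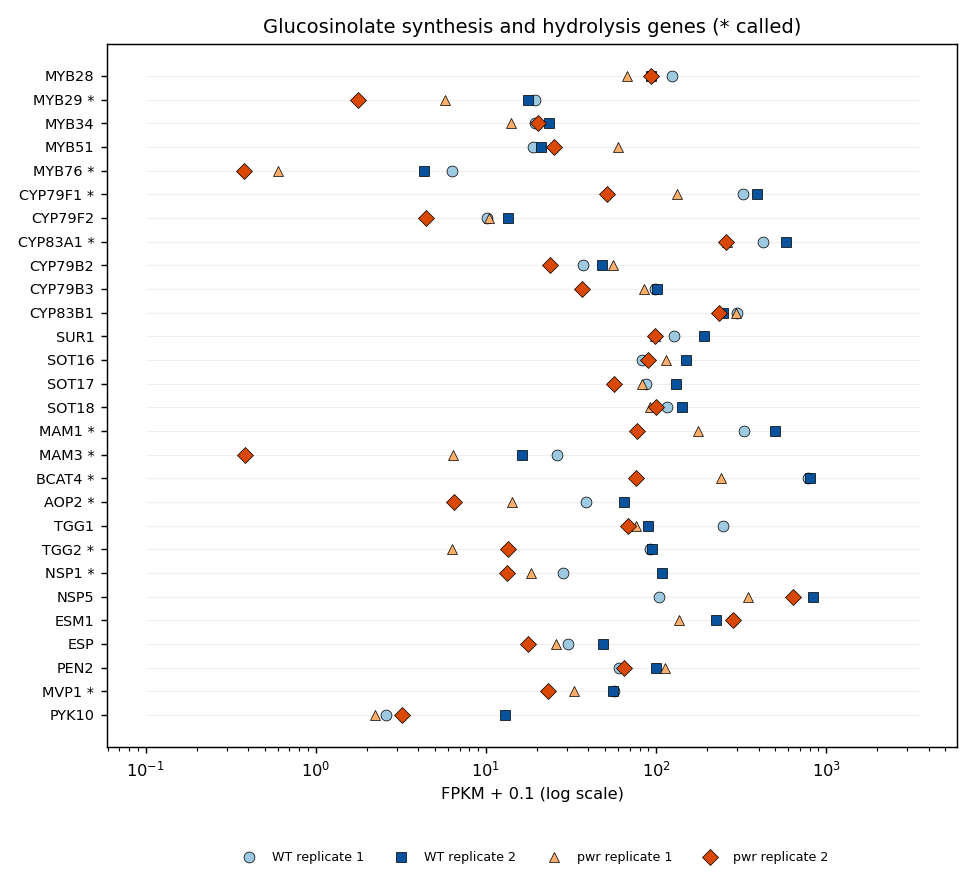
FPKM plus 0.1 on a logarithmic axis in each library for 19 tested genes of glucosinolate synthesis and 9 of hydrolysis, with an asterisk on genes called. BCAT4 (786 and 805 FPKM in WT, 240 and 75.6 FPKM in pwr) and TGG2 have both pwr libraries to the left of both WT libraries. So do 9 of the 10 aliphatic genes, BCAT4 included, and 1 of the 5 indole genes.

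The 10 largest decreases were taken from the 183 protein coding genes averaging 5 FPKM or more that were called lower and at least 2-fold below WT replicate 2 in both pwr libraries. NATA1 (AT2G39030), an acetyltransferase that makes a jasmonate-induced defence compound from ornithine, was at 55.0 and 141 FPKM in WT and at 10.2 and 4.96 FPKM in pwr, a log2 change of -3.45 ± 0.57. The thionin gene AT1G66100 was at 332 and 672 FPKM in WT and at 119 and 3.19 FPKM in pwr, with an SE of 1.58 on a change of -4.40 because the pwr libraries differed widely. AT4G11320, a papain-type cysteine protease, was at 13.6 and 31.2 FPKM in WT and at 0.791 and 1.35 FPKM in pwr. PGL5, annotated as a 6-phosphogluconolactonase of the pentose phosphate route, was at 30.9 FPKM in both WT libraries and at 2.63 and 0.445 FPKM in pwr. Of the 10 decreases 8 kept their calls in every fit that left out a library, and AT1G66100 and ZW9 did not. The 8 include AT1G07885, AT5G10336, AT1G76994 and AT2G47844, which were listed at 0 in both pwr libraries. The calls of those loci are not independent of the filter, and they have no spread within pwr.

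Loci of unknown function filled many of the extreme ranks. AT1G07885, AT5G10336, AT1G76994 and AT2G47844 were listed at 0 in both pwr libraries and at 9.35 to 44.9 FPKM in WT, and AT4G23271 and AT3G09863, at spans of 102 and 132 bases, were listed at 0 in both WT libraries and at 12.9 to 77.1 FPKM in pwr. No fold is given against libraries listed at 0. These loci passed the filter only through the genotype in which they were detected, and FPKM of very short loci are poorly determined. Of all genes 7.1% were called in either direction. The share was 14.0% of 172 loci spanning under 200 bases and 22.8% of 127 loci of 200 to 400 bases, was lowest at 5.11% of 9074 genes of 1600 to 3200 bases, and was 15.9% of 598 genes of 6400 bases or more, where 93 were called higher and 2 lower. Above 200 bases the median log2 change was higher in each longer span class, from -0.60 at 200 to 400 bases to 0.40 at 6400 bases or more, and also against WT replicate 2, from -0.28 to 0.31. The median over each list was therefore taken again after subtracting the median of all genes in the same span class. It then was -0.89 for the jasmonate list, -0.75 for the glucosinolate list and 0.41 for the flowering list.

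Better characterised genes among the 10 largest increases, of 70 that met the corresponding rule, were FT, AGL19 and ERF6. AT4G35655, a RIN4 family gene (RIN4 is a guarded regulator of plant immunity), was at 4.49 and 2.64 FPKM in WT and at 35.9 and 35.7 FPKM in pwr. AGL19, AT3G09863, AT4G23271, AT4G35655 and ERF6 kept their calls in every fit that left out a library. AT3G09863 and AT4G23271 were listed at 0 in both WT libraries, so their calls are not independent of the filter. Among 90 tested genes of NB-LRR immune receptors, listed after values were seen, 11 were called higher and 0 lower, beside 3.86% and 3.24% of all genes. The NB-LRR median log2 change was 0.40, 0.36 against WT replicate 2 and 0.23 after correction for span class. Their median span was 4526 bases. Without WT replicate 1 or WT replicate 2, 7 of these 11 calls stayed, with 3 without pwr replicate 1 and 2 without pwr replicate 2. WRKY53, a senescence transcription factor, was at 4.68 and 13.2 FPKM in WT and at 51.1 and 21.5 FPKM in pwr. It was 1 of 2 called higher of 50 WRKY genes, a share of 4% that is near that of all genes. The other was WRKY46, at 8.96 and 9.41 FPKM in WT and 28.6 and 18.8 FPKM in pwr. WRKY53 lost its call without WT replicate 1 or pwr replicate 1, and WRKY46 without pwr replicate 1.

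Ribosomal genes were higher by a small amount, mostly in pwr replicate 2. The list of 160 tested ribosomal proteins annotated to the cytosolic ribosome was added after values were seen. Of these, 11 were called higher and 0 lower, beside 3.86% and 3.24% of all genes. Both pwr libraries were above both WT libraries for 81 of the listed genes and below both for 0, beside 25.8% and 16.8% of all genes. Their median log2 change was 0.49, 0.52 against WT replicate 2 and 0.48 against WT replicate 1. For pwr replicate 1 the median was 0.20 above WT replicate 2 and 0.09 above WT replicate 1, and for pwr replicate 2 it was 0.87 and 0.81. Over all genes tested these medians were 0.01 and 0.17 for pwr replicate 1, and -0.01 and 0.18 for pwr replicate 2. Between pwr replicate 1 and WT replicate 1, ribosomal genes thus rose less than all genes. Without pwr replicate 2 the median over the list was 0.13. RPL3B was at 10.4 and 17.7 FPKM in WT and at 44.8 and 78.8 FPKM in pwr, a log2 change of 2.05 ± 0.42. RPS6, whose protein is phosphorylated in growing tissue, was at 73.9 and 108 FPKM in WT and at 171 and 306 FPKM in pwr. Without pwr replicate 2, 1 of the 11 calls remained, and without WT replicate 1 there were 2. For both named genes pwr replicate 2 was the highest library.

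Annotated processes with at least 30 tested genes were described in the same way. Over all genes 3.86% were called higher and 3.24% lower. Of the 61 processes, ribosome biogenesis had the highest median log2 change, 0.52 with 10 called higher and 0 lower of 91 genes, and translation was at 0.45 with 23 higher and 3 lower of 336. Against WT replicate 2 these medians were 0.58 and 0.48. Here too pwr replicate 2 was further from WT, at 0.93 and 0.76 above WT replicate 2 against 0.23 and 0.17 for pwr replicate 1. Lipid transport had the lowest median with all 4 libraries, -0.55, which was -0.25 against WT replicate 2, where 4 processes were lower. It had 2 higher and 7 lower of 38 genes, among them the lipid transfer protein gene LP1 at 649 and 933 FPKM in WT and 259 and 389 FPKM in pwr. Response to wounding had 1 higher and 5 lower of 56 genes, with a median of -0.38 against WT replicate 2 and 0.06 against WT replicate 1, and response to salt stress 3 higher and 13 lower of 210. Defence response was mixed, with 13 higher and 12 lower of 172 genes.

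Cold and drought genes gave a result that turned with the WT library. Of 28 tested members 5 were called lower and 0 higher, beside 3.24% and 3.86% of all genes. The list median log2 change was -0.70, -1.39 against WT replicate 2 but 0.38 against WT replicate 1. The 5 calls were GOLS1, COR15A, KIN2, ANNAT1 and COR413-PM1. COR15A, a chloroplast protein that protects membranes during freezing, was at 668 and 1204 FPKM in WT and at 339 and 304 FPKM in pwr, a log2 change of -1.48 ± 0.42. GOLS1, which makes galactinol, was at 74.6 and 166 FPKM in WT and 35.7 and 30.6 FPKM in pwr. All 5 calls stayed without WT replicate 1, 4 without WT replicate 2, and 0 without either pwr library. For the classical ABA marker RAB18 the WT libraries were at 8.85 and 466 FPKM and the pwr libraries at 7.93 and 14.2 FPKM, and 8 of the 28 genes had both pwr libraries below both WT libraries, beside 16.8% of all genes.

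Upstream sequence of the jasmonate and the cold and drought genes called lower was read from the reference where no other gene lay within 250 bases before the annotated start. The motifs marked are the G-box CACGTG, bound by MYC2 and by ABA response factors, and the CRT core CCGAC, bound by CBF factors, each on either strand. A G-box was present in 7.64% of 12050 tested genes with such a window, in 11.1% of 414 genes called lower and 9.39% of 479 called higher, in 5 of 23 jasmonate genes and in 8 of 25 cold and drought genes. A CRT core was present in 11.9% of all windows and in 10 of the 25. W-boxes (core TTGAC, 45.6% of all windows), GCC-boxes (GCCGCC, 1.31%) and telo-boxes (AAACCCTA, 2.56%) were searched likewise, and were present in 41.3%, 0.725% and 1.93% of genes called lower. The sequences below are those of called genes with a G-box, written 5′ to 3′ on the strand of the gene and ending at the base before its start, with G-box and CRT core letters in capitals. They are JAZ3 at chr3:6119457-6119706 (plus strand), COR15A at chr2:17712331-17712580 (minus strand), GOLS1 at chr2:19370479-19370728 (minus strand) and ANNAT1 at chr1:13224918-13225167 (plus strand), all of RefSeq TAIR10.1.
JAZ3: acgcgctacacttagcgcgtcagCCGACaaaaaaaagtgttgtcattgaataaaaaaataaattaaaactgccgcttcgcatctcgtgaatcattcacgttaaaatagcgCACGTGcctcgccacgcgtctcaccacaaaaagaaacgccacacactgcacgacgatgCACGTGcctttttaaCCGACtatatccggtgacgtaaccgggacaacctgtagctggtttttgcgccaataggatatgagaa
COR15A: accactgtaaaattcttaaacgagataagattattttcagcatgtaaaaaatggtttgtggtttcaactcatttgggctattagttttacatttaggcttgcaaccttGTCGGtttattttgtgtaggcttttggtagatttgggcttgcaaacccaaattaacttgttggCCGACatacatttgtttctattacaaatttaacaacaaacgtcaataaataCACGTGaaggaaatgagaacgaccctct
GOLS1: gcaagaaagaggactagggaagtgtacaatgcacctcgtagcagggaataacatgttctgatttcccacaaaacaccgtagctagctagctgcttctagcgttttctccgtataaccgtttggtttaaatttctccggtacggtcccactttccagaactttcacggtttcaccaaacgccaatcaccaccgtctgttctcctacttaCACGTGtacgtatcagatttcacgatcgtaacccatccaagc
ANNAT1: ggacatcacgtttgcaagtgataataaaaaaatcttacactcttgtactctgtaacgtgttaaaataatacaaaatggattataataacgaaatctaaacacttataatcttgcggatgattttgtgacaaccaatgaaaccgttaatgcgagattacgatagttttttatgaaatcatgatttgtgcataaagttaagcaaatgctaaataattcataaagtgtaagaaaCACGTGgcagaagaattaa

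The windows of VSP1, VSP2, AOC1, JAZ9 and KIN2 held neither motif, which says only that these letters are not in those bases, and that of COR413-PM1 held 1 CRT core and no G-box. JAZ3 carried 2 G-boxes, starting 140 and 82 bases before the start.

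Senescence markers differed more between the WT libraries than between the genotypes. Of 16 tested markers 3 were called lower and 0 higher, beside 3.24% and 3.86% of all genes. The marker median log2 change was -0.26, which was -1.53 against WT replicate 2 and 0.40 against WT replicate 1. SAG12, the cysteine protease most used as a senescence marker, was listed at 0 in WT replicate 1 and was at 5.0 FPKM in WT replicate 2, 0.0770 FPKM in pwr replicate 1 and 0.644 FPKM in pwr replicate 2. SAG113, a phosphatase of ABA-dependent senescence, was at 14.9 and 163 FPKM in WT and at 36.0 and 63.2 FPKM in pwr, and its change was higher without WT replicate 2 (1.61) and lower without WT replicate 1 (-1.75). The summed FPKM of the 16 markers was 1988 and 5529 in WT and 2449 and 2047 in pwr, so both pwr libraries lay between the WT libraries.

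The 3 markers called lower were SEN4, SEN1 and DIN6. SEN4, a xyloglucan-modifying enzyme, was at 373 and 673 FPKM in WT and at 249 and 103 FPKM in pwr, a log2 change of -1.64 ± 0.57. DIN6, an asparagine synthetase induced in darkness, was at 17.8 and 58.6 FPKM in WT and 10.12 and 1.87 FPKM in pwr, and SEN1 at 62.6 and 122 FPKM in WT and 46.2 and 23.1 FPKM in pwr. All 3 calls stayed without WT replicate 1 or pwr replicate 1 and all were lost without WT replicate 2 or pwr replicate 2.

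Of 11 senescence genes that the study singled out as candidate HDA9 targets, 2 were called higher and 0 lower in pwr, beside 3.86% and 3.24% of all genes. The median log2 change of these 11 genes was 0.29, 0.10 against WT replicate 2. The study picked them for HDA9 binding and for higher expression in hda9 than in these same WT libraries, so their direction here is not independent evidence. It kept WRKY57 although that gene missed the study's RNA-seq threshold in hda9. NPX1, a nuclear repressor of ABA responses, was at 5.09 and 9.72 FPKM in WT and at 14.7 and 19.7 FPKM in pwr, a log2 change of 1.16 ± 0.38, and AFP2 is described above. The other 9 had changes between -0.19 and 1.08 and were not called. Among them ATG2, PLL5 and WRKY57 had both pwr libraries above both WT libraries, with WRKY57 at 27.4 and 35.9 FPKM in WT and 37.3 and 39.8 FPKM in pwr. By RT-qPCR, a different measure with added replicates, the study reported APG9 and WRKY57 as significantly higher in pwr. The calls of NPX1 and AFP2 were lost without WT replicate 1 and without either pwr library. Autophagy genes gave 0 calls among 29, with a median of 0.03.

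The size of the photosynthesis decrease also depended on the WT library. Of 38 nuclear photosystem, antenna and small Rubisco subunit genes 4 were called lower and 0 higher, beside 3.24% and 3.86% of all genes. The list median was -0.76, made of -1.36 against WT replicate 1 and -0.16 against WT replicate 2. LHCB1.4, an antenna protein gene of photosystem II, was at 561 and 566 FPKM in WT and at 121 and 54.5 FPKM in pwr, a log2 change of -2.78 ± 0.46 that was -2.78 against WT replicate 2 as well. LHCB2.3 was at 249.99 and 123 FPKM in WT and 40.1 and 30.8 FPKM in pwr. These genes kept their calls in every fit that left out a library, whereas LHCB2.2 and LHCB3 did not. Antenna genes occur as close paralogues, so the division of reads between copies is uncertain.

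Nutrient genes moved in both directions. GLN1;4, a cytosolic glutamine synthetase, was at 8.32 and 5.94 FPKM in WT and at 22.1 and 24.9 FPKM in pwr, and NRT2.5, a nitrate transporter of starved plants, was at 0.280 and 0.160 FPKM in WT and at 3.68 and 1.88 FPKM in pwr. NRT2.5 was under 1 FPKM in both WT libraries and passed the filter only through pwr, so its call is not independent of the filter. Both genes kept their calls in every fit that left out a library. They were the 2 higher calls, with DIN6 as the lower call, among 17 genes of nitrogen remobilization, beside 3.86% and 3.24% of all genes. Sugar exporters gave 2 lower calls of 9, SWEET12 at 339 and 292 FPKM in WT and 148 and 201 FPKM in pwr, and SWEET17 at 76.5 and 62.7 FPKM in WT and 38.5 and 27.4 FPKM in pwr, both lost in at least 2 of the 4 fits.

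Cell wall genes of the XTH and expansin families gave 4 lower and 0 higher calls of 30 tested, beside 3.24% and 3.86% of all genes. The lower calls include SEN4, already counted above among the senescence markers. XTH6 was at 9.53 and 14.3 FPKM in WT and at 2.75 and 0.989 FPKM in pwr, a log2 change of -2.22 ± 0.43, and kept its call in every fit that left out a library. Heat shock family genes gave 3 higher and 0 lower of 25, and the median of 0.53 was 0.19 against WT replicate 2. The 3 calls were lost without WT replicate 1 or pwr replicate 2, and of 16 heat shock proteins in a shorter list 1 was called higher. Lists with no call in either direction were chlorophyll synthesis (16 tested genes), photorespiration (12), anthocyanin and flavonoid genes (15), phosphate starvation (13), the circadian clock (15), small RNA pathway (16), cell cycle (8), type A response regulators (7), metallothioneins and ferritins (9), aquaporins (16), the SAUR family (42) and root and vascular markers (7). For 10 of the 15 clock genes both pwr libraries were above both WT libraries, beside 25.8% of all genes.

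Smaller counts came from the remaining lists, where 3.86% of all genes were called higher and 3.24% lower. CLH1, a chlorophyllase induced by jasmonate, was at 238 and 209 FPKM in WT and at 104 and 58.5 FPKM in pwr and was the 1 lower call of 12 chlorophyll breakdown genes. FLS2, the flagellin receptor, was at 3.47 and 2.27 FPKM in WT and at 0.917 and 1.21 FPKM in pwr, the 1 lower call of 23 salicylic acid and defence genes. The median log2 change of those 23 was 0.26, and the pwr libraries differed. Against WT replicate 2 the median was 0.89 for pwr replicate 1 and -0.49 for pwr replicate 2. FSD3, a plastid superoxide dismutase, was the 1 higher call of 14 antioxidant genes, at 16.6 and 10.96 FPKM in WT and 22.1 and 31.9 FPKM in pwr. Each of these calls was lost in at least 2 of the fits that left out a library.

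Glutathione transferases gave 2 higher and 2 lower calls of 37, and the lower ones, GSTF11 and GSTU20, take part in aliphatic glucosinolate synthesis. GSTF11 was at 35.5 and 46.1 FPKM in WT and at 15.5 and 5.05 FPKM in pwr. Of 16 senescence NAC and WRKY factors WRKY53 was the 1 call. Of 51 tested microRNA loci 2 (3.92%) were called higher and 3 (5.88%) lower, beside 3.86% and 3.24% of all genes. Among the called loci were MIR168a, whose microRNA targets AGO1, listed at 0 in both WT libraries and at 76.1 and 106 FPKM in pwr, and MIR403, at 22.0 and 13.1 FPKM in WT and listed at 0 in both pwr libraries. MIR168a and MIR403 each passed the filter only through the genotype in which they were detected. FPKM of microRNA loci come from precursors and do not measure mature microRNAs.

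**Figure D5:**
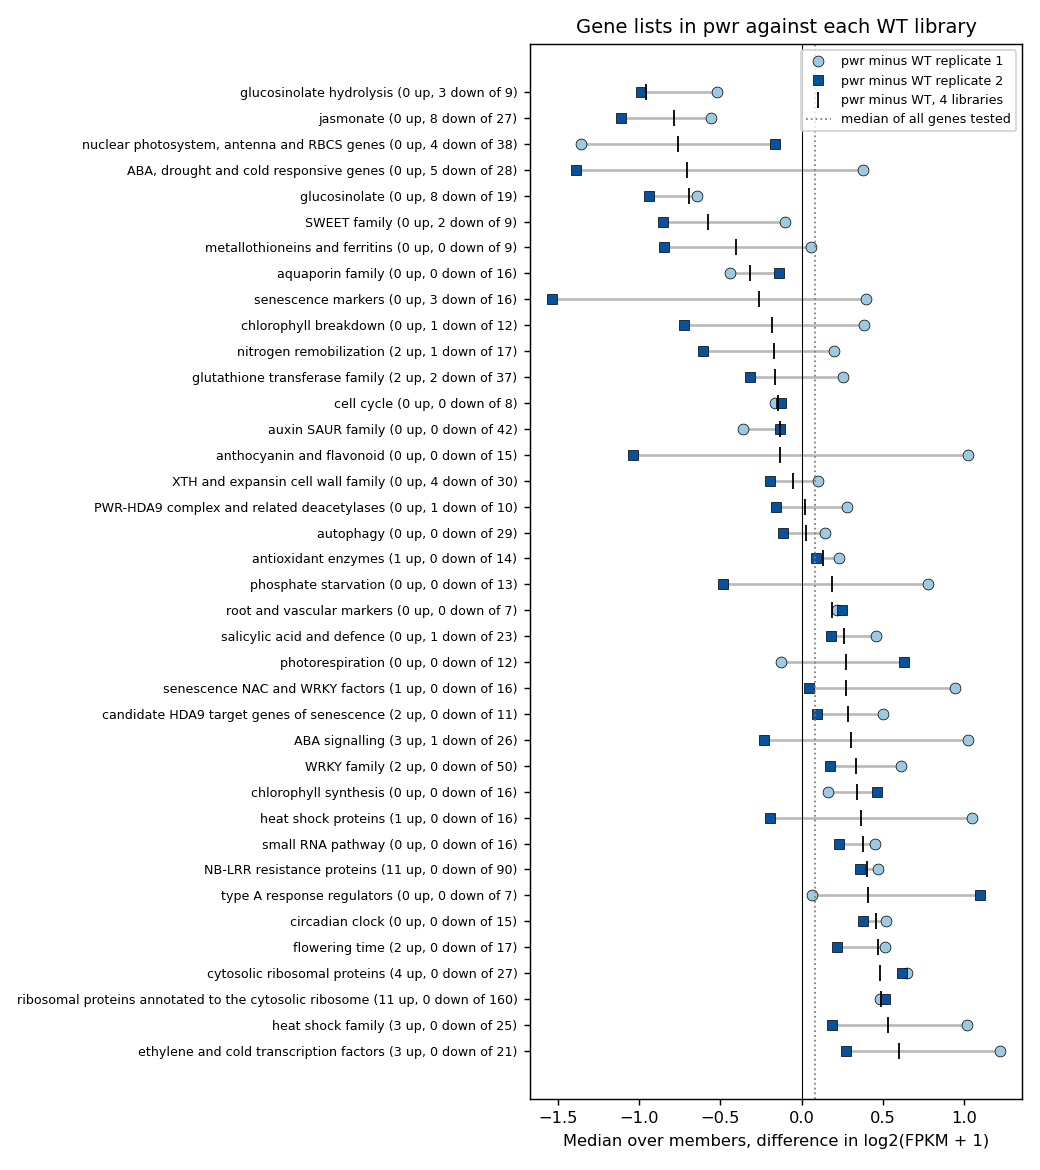
Median difference in log2(FPKM + 1) over the tested members of the gene lists shown, for pwr minus WT replicate 1 (light circles), minus WT replicate 2 (dark squares) and for all 4 libraries (bars), with the numbers called in brackets and the dotted line at the median of all genes tested (0.09). The jasmonate list has both values below 0 (-0.56 and -1.11) and the ribosomal lists have both above 0, while senescence markers (0.40 and -1.53) and cold and drought genes lie on either side.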

How the data were processed

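RNA-seq of early senescent leaves was analysed for 2 libraries of pwr and 2 of WT. The deposited table holds FPKM per gene, which the authors made from reads mapped to TAIR10. Their methods name Bowtie2, TopHat and Cufflinks and a collapse of reads at identical positions, given for RNA-seq and ChIP-seq together, so whether the collapse was applied to these libraries is not stated. If it was, levels of abundant genes would be compressed. The file gives no counts, so depth is unknown and no count model was used. From these values log2(FPKM + 1) was computed, genes averaging 1 FPKM or more were kept, and pwr was compared with WT in limma 3.58.1 (R 4.3.3) with an intensity trend and without a replicate block. Tests were two-sided, and calls used an unadjusted p under 0.05, the threshold of the study. After Benjamini-Hochberg adjustment 0 genes passed 0.05. The 2 hda9 ES columns entered only 1 alternative fit and the hda9 levels printed. Columns of the authors' own comparisons were not used.

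Genes named in the text were the 10 largest increases and 10 largest decreases among protein coding genes averaging 5 FPKM or more that were called and at least 2-fold from WT replicate 2 in both pwr libraries, and at most 4 members of each list, with further members given for the lists described in full. Members and gene lists were chosen with earlier results of these data known, and 8 lists were added after values were seen. Names, spans and sequences came from RefSeq TAIR10.1, in which 18119 of the 18180 tested genes were matched. Scripts used Python 3.11.15, and the fit was tested on simulated data. Alternatives were another pseudocount, other filters, other scalings, a replicate block, a fit of all 6 ES libraries, no trend and leaving out each library.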

Additional observations from a re-analysis of the deposited data

How the results depend on the processing

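With 2 libraries a genotype, counts of calls moved with each library. Leaving out 1 library gave 235 to 2373 genes higher (702 with all 4) and 201 to 1129 lower (589). Genes at least 2-fold above WT replicate 2 numbered 516 to 1083 with a single pwr library (164 with both), and those below it 1144 to 1478 (717). Adjusted p left 0 genes higher and 0 lower, a 2-fold minimum 450 higher, and non-overlap of the libraries 4682 higher and 3057 lower. Against WT replicate 2, a pseudocount of 0.1 gave 316 genes 2-fold higher, and a 1.5-fold limit 802 higher and 1608 lower. The replicate block gave 805 higher and 678 lower calls. Same-numbered libraries deviated together only weakly (r = 0.0985 across 18180 genes), so the numbers were not taken as pairs. Rescaling by median ratios turned the balance to 612 higher and 740 lower.

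Leaving out 1 library, the change of SAG113 ranged from -1.75 to 1.61. Medians ranged from -1.53 to 0.40 for senescence markers, -1.39 to 0.38 for cold and drought genes, -0.017 to 0.23 for antioxidant enzymes (-0.041 less span class), -0.13 to 0.63 for photorespiration and -0.39 to 0.13 for indole glucosinolate genes. For senescence markers and cold and drought genes these are the values against 1 WT library. The cause was not tested. Of 74 named called genes, 51 kept their call without WT replicate 1, 56 without WT replicate 2, 48 without pwr replicate 1 and 35 without pwr replicate 2. None of the 1291 called genes changed direction in any alternative fit. All had libraries that did not overlap between genotypes, so leaving out 1 library could not change their direction. Without counts, precision at low FPKM and for short loci is unknown.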
